A study of Mus musculus with 3 samples.

Results

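The semaphorins, plexins and neuropilins of the mouse sciatic nerve are described here from single-cell counts. The family was taken as every gene whose symbol is that of a class 3 to class 7 semaphorin, a plexin or a neuropilin. That gave 31 of the 21438 genes listed in the series, namely 20 semaphorins, 9 plexins and 2 neuropilins. The semaphorins comprised 7 of class 3, 6 of class 4, 2 of class 5, 4 of class 6 and the only class 7 gene. Cells came from adult mice and were profiled with Drop-seq, where transcripts are tagged per cell and per molecule, so that each unique molecular identifier (UMI) counts once. The series holds 3 libraries, 1 per group. The first is injured nerve of wild-type CD1 mice passed through myelin removal beads. The second is injured nerve of CD1 and C57BL/6 mice sorted by FACS, and which cells the sort kept is not stated in the labels. The third is uninjured nerve of wild-type CD1 mice passed through myelin removal beads, and here its table holds only cells that the authors predicted to be mesenchymal. Both injured libraries were made from the distal nerve segment 9 days after resection. The number of animals behind each library was not given.

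Semaphorins are secreted or membrane-bound guidance proteins, and plexins are their main signalling receptors. Secreted class 3 semaphorins mostly bind a neuropilin, which forms a receptor complex with a class A plexin or Plxnd1, while membrane semaphorins bind plexins directly. Plexins act on small GTPases and the cytoskeleton, and neuropilins also bind vascular endothelial growth factors. In peripheral nerve the family is known for steering regrowing axons, for vessel patterning and for signals between Schwann cells, fibroblasts and immune cells.

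For injured nerve, the beads library held 4300 barcodes and 10859939 UMIs (median 1343), and the FACS library 2000 barcodes and 7122377 UMIs (median 2356.5). The mesenchymal tables held 1289 injured cells (median 2798 UMIs) and 880 uninjured cells (median 2102.5 UMIs). The injured all-cell tables shared 1 barcode, and the uninjured table shared 0 with either. Levels are UMIs of a gene per 1000000 UMIs of a pool of cells (CPM), read along a gene across pools and never between genes. Each group is 1 library, so no difference has a replicate check and no p-value is given. Ranges in brackets are 95% intervals and cover counting error only. An injured pool was called higher or lower than the uninjured one if the gene reached 50 CPM in either, differed at least 2-fold and had a ratio interval that excluded 1.

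Cell classes of the injured nerve were named "-like" from fixed marker genes on clusters built without the family. In the beads library they were 967 mesenchymal-like, 574 endothelial cell-like, 511 mononuclear phagocyte-like, 478 Schwann cell-like, 390 B cell-like, 281 pericyte or smooth muscle cell-like, 211 T or NK cell-like, 125 neutrophil-like and 36 mast cell-like cells. The FACS library gave 738 mononuclear phagocyte-like, 680 mesenchymal-like, 83 endothelial cell-like, 82 Schwann cell-like, 20 mast cell-like and 16 neutrophil-like cells. Clusters left without a name in either library enter no class. Rgs5, a pericyte marker, led the genes of the endothelial cell-like cluster of the FACS library. Pericyte or smooth muscle cell markers summed to 3485 CPM there, beside 7097 CPM of endothelial markers. In endothelial cell-like cells of the beads library these sums were 351 CPM and 7923 CPM. The FACS library had no separate pericyte or smooth muscle cell-like class, so its endothelial cell-like levels are of a mixed cluster.

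Of the 31 genes, 21 reached 50 CPM in at least 1 class of the beads library, and 19 did so in the FACS library. In the beads library 7 of those 21 genes were highest in 1 class, by at least 2-fold over every other class with each ratio's interval excluding 1, beside 20.8% of the 7976 genes of the whole table that reached 50 CPM. They were Sema3b, Sema3e, Sema4c and Sema4f in Schwann cell-like cells, Sema3g and Sema6a in endothelial cell-like cells and Sema4a in neutrophil-like cells. Sema3f, Sema5a, Sema6b and Plxnb3 were also at least 2-fold above their next class, but not beyond counting error over every class. With barcodes of at least 500 genes the count was 1, and the share over all genes in that setting is not given here. By the same rule the FACS library gave Sema4d alone, from 5 UMIs of 16 neutrophil-like cells, beside 7.36% of 7129 genes. In that library 3 counts equal 329 CPM in neutrophil-like and 58.7 CPM in mast cell-like cells, so few genes can stand above those classes beyond counting error. Sema3b, Sema3e, Sema4f, Sema6a and Sema6b, among others, were over 2-fold above every other class there without passing the interval condition. Over the 4 larger classes found in both libraries, 15 of 17 genes had the same highest class in both, the exceptions being Plxna2 and Sema3c. The matching share over all genes is not given here, so this count is not read as a trait of the family.

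**Figure D1:**
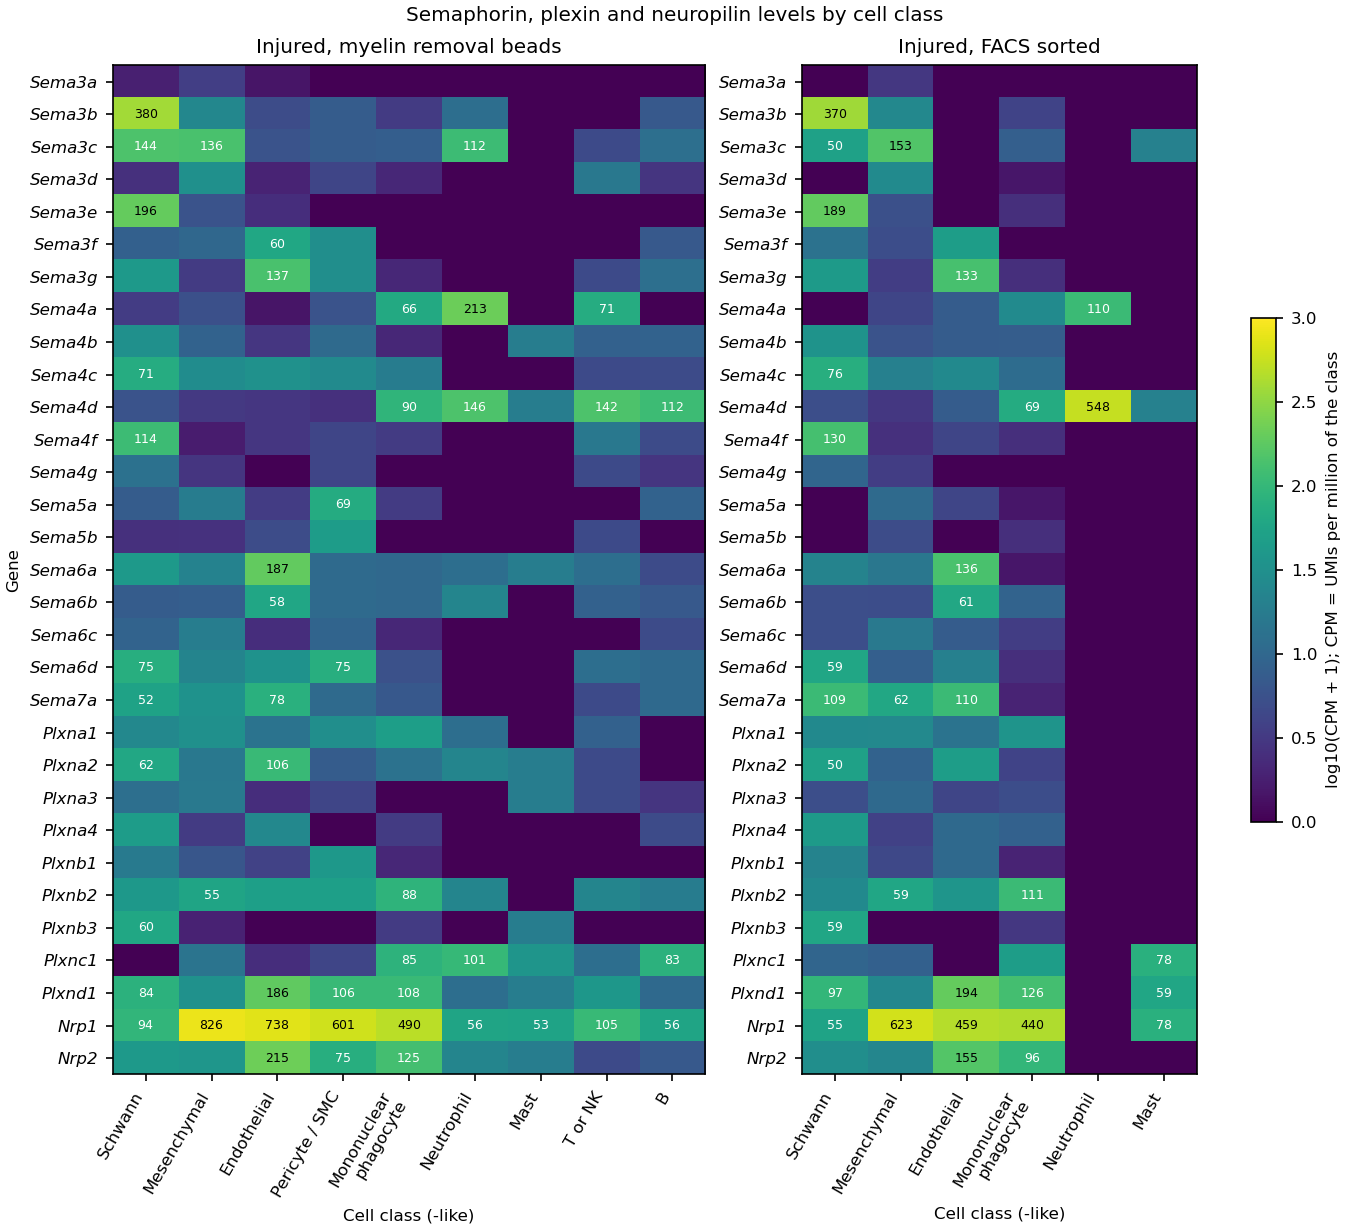
Level of each family gene (rows) in each named cell class (columns) of the injured beads library (left) and the injured FACS library (right); colour is log10(CPM + 1) and cells at 50 CPM or more carry their CPM. Nrp1 is high in mesenchymal-like, endothelial cell-like and mononuclear phagocyte-like cells of both libraries, and Sema3b, Sema3e and Sema4f are high in Schwann cell-like cells.

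Among the secreted ligands, Sema3b, which signals through neuropilins, stood at 379.8 CPM (346 to 416) in Schwann cell-like cells of the beads library and 370.01 CPM (297 to 456) in those of the FACS library. Mesenchymal-like cells, the next class in each library, had 23.7 CPM and 24.03 CPM, so the Schwann cell-like level was 16.02-fold and 15.4-fold higher. Sema3e, which binds Plxnd1 without a neuropilin, had 196 CPM (172 to 223) in Schwann cell-like cells of the beads library and 189 CPM (138 to 253) in those of the FACS library. Its next class, again mesenchymal-like, was at 4.93 CPM and 4.39 CPM. The membrane ligand Sema4f, known from Schwann cell contact with axons, had 114 CPM (95.6 to 134) and 130.3 CPM (88.6 to 185) in Schwann cell-like cells of the beads and FACS libraries. Sema4c, a ligand of Plxnb2, had 70.6 CPM (56.6 to 87.1) and 75.7 CPM (44.9 to 119.6) there. For each of these 4 genes the intervals of the libraries overlap, although isolation and strain differ. Sema4c shares 334 exonic bases with D430040D24Rik on the other strand.

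The promoters of Sema3e and Sema4f are shown because, among those of the 7 genes with a listed promoter, their Schwann cell-like levels exceeded the next class by the widest margins (39.8-fold and 7.58-fold in the beads library). The sequences are from RefSeq on GRCm38.p6, 250 bases before to 50 bases after the gene start that RefSeq lists, 5′ to 3′ on the gene's strand. Capitals mark matches on either strand. A GC box was searched as GGGCGG, and 35.7% of 32851 RefSeq mouse promoters of this length held one. An AP-1 site was searched as TGANTCA and was held by 7.81% of them. A TATA box was searched as TATAAA and was held by 13.6%. A SOX site was searched as ACAAAG and was held by 18.7%. The Sema3e window (chr5:14025026-14025325, plus strand) held 2 GC boxes, and the Sema4f window (chr6:82939720-82940019, minus strand) held 1 SOX match. No match overlapped another in the windows printed.
Sema3e: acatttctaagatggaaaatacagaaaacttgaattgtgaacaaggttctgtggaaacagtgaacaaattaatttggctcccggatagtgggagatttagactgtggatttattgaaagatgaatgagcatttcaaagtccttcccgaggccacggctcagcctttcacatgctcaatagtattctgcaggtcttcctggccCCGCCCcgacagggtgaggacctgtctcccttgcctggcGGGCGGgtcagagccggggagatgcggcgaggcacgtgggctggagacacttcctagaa
Sema4f: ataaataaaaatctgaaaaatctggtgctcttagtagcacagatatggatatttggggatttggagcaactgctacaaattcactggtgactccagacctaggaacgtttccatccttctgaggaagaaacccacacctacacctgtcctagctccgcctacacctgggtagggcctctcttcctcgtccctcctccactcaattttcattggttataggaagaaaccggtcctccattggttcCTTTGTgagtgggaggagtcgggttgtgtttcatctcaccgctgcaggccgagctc

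Other ligands of Schwann cell-like cells were shared with further classes. Sema3c, which binds neuropilins and guides neural crest cells, had 144 CPM (124 to 167) in Schwann cell-like cells of the beads library and 50.5 CPM (26.1 to 88.1) in those of the FACS library. Mesenchymal-like cells had 136 CPM and 153 CPM of it, so the order of the classes differed between the libraries. Sema6d, a membrane ligand of Plxna1, had 74.7 CPM in Schwann cell-like and 75.1 CPM in pericyte or smooth muscle cell-like cells of the beads library.

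Endothelial cell-like cells held the highest levels of Sema3g, an endothelial ligand that binds Nrp2, with 137 CPM (121 to 154) in the beads library and 133 CPM (95.1 to 179.8) in the FACS library. Sema6a, a membrane ligand of Plxna2 and Plxna4, had 187 CPM (169 to 207) and 136 CPM (97.9 to 184) there. Both were at least 3-fold above the next class in each library. Sema3f, a ligand of Nrp2, had 60.01 CPM and 45.3 CPM in these cells, and Sema6b, a ligand of Plxna4, had 58.05 CPM and 61.4 CPM. Sema7a, a membrane-anchored ligand of integrin beta1 and Plxnc1, had 78.2 CPM (66.5 to 91.4) and 109.9 CPM (76.1 to 154), beside 51.9 CPM and 109 CPM in Schwann cell-like cells. The endothelial cell-like clusters of the beads library were not alike. Sema3g stood at 188 CPM (166 to 211) in the cluster led by Cldn5, Gpihbp1 and Sox17 and at 1.799 CPM, from 1 UMI, in the cluster led by the venule genes Sele and Selp. Sema7a followed the same order with 103 CPM and 12.6 CPM, while Sema3f had 48.1 CPM and 91.7 CPM.

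Immune classes carried the class 4 ligands Sema4a and Sema4d, which are known for acting on lymphocytes. In the beads library Sema4a had 213 CPM (128 to 333) in neutrophil-like cells, from 19 UMIs, and 71.2 CPM and 65.7 CPM in T or NK cell-like and mononuclear phagocyte-like cells. Sema4d had 146 CPM (77.7 to 249) in neutrophil-like cells, 142 CPM (101 to 196) in T or NK cell-like cells and 112 CPM (85.04 to 145) in B cell-like cells, and these intervals overlap. Mononuclear phagocyte-like cells had 89.9 CPM of Sema4d in the beads library and 69.3 CPM in the FACS library. Sema5a, a semaphorin with thrombospondin repeats, was highest in pericyte or smooth muscle cell-like cells of the beads library at 68.6 CPM (49.4 to 92.7). Its next class, mesenchymal-like cells, was at 17.1 CPM. Within the mural class, Sema6d was at 94.3 CPM in the cluster led by Rgs5 and at 0 UMIs in the cluster led by Myh11, where 0 counts allow up to 24.1 CPM.

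Nrp1, the co-receptor for Sema3a and vascular endothelial growth factor A, was spread over several classes. In the beads library it had 826 CPM (799 to 853) in mesenchymal-like, 738 CPM (701 to 776) in endothelial cell-like, 601 CPM (541 to 666) in pericyte or smooth muscle cell-like and 489.96 CPM (444 to 539) in mononuclear phagocyte-like cells. The FACS library had 623 CPM, 459 CPM and 440.3 CPM in mesenchymal-like, endothelial cell-like and mononuclear phagocyte-like cells. Free RNA can add UMIs to any droplet, so Nrp1 was set beside the summed mesenchymal markers. B cell-like cells of the beads library carried 6.78% of the mesenchymal-like Nrp1 level and 2.91% of the marker level. Schwann cell-like cells, at 94.1 CPM of Nrp1, carried 11.4% of the Nrp1 level and 19.5% of the marker level. Whether this Nrp1 is carried over was not tested. Mononuclear phagocyte-like cells carried 59.3% of the Nrp1 level and 4.06% of the marker level.

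Nrp2, the co-receptor of Sema3f that also binds vascular endothelial growth factor C, had 215 CPM (196 to 237) in endothelial cell-like and 125 CPM (102 to 150.3) in mononuclear phagocyte-like cells of the beads library. It was at 379 CPM (330.01 to 434) in the venule-gene cluster and 154 CPM (134 to 175) in the other endothelial cell-like cluster. In the FACS library Nrp2 ranged from 41.4 CPM to 254 CPM across the 4 mononuclear phagocyte-like clusters, with its highest level in the cluster led by Mmp12 and Mmp9. Plxnd1, the Sema3e receptor, had 186 CPM (168 to 206) and 194 CPM (148 to 249.7) in endothelial cell-like cells of the beads and FACS libraries. Mononuclear phagocyte-like cells had 108 CPM and 126 CPM of Plxnd1, the next level in each library.

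Among the remaining plexins, Plxna2, a receptor for Sema6a, had 106 CPM (92.1 to 121) in endothelial cell-like and 62.5 CPM (49.3 to 78.1) in Schwann cell-like cells of the beads library. In the FACS library these levels were 45.3 CPM and 50.5 CPM. Plxnb2, the Sema4c receptor, was highest in mononuclear phagocyte-like cells with 87.6 CPM (69.03 to 109.7) and 111 CPM (97.1 to 127) in the beads and FACS libraries. Plxnb3, a Sema5a receptor known from glia, had 60.1 CPM and 58.9 CPM in Schwann cell-like cells. Plxnc1, the plexin of Sema7a, was found in blood cell classes, with 101 CPM in neutrophil-like, 85.3 CPM in mononuclear phagocyte-like and 83.03 CPM in B cell-like cells of the beads library. The ratio of the first 2 was 1.18 (0.52 to 2.37), so their order is within counting error. In the FACS library mast cell-like cells had 78.2 CPM and mononuclear phagocyte-like cells 45.5 CPM, a ratio of 1.72 (0.46 to 4.55).

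The other 10 genes stayed under 50 CPM in every named class of both libraries. Plxna1 and Plxna4, which pair with neuropilins, peaked at 47.3 CPM in mononuclear phagocyte-like and 44.6 CPM in Schwann cell-like cells of the beads library. Plxnb1, the Sema4d receptor, and Sema5b peaked at 39.2 CPM and 44.1 CPM in pericyte or smooth muscle cell-like cells. Sema3d, a secreted guidance ligand, peaked at 31.2 CPM in mesenchymal-like cells, and the membrane ligand Sema4b at 33.6 CPM in Schwann cell-like cells of the FACS library. Sema4g and Sema6c peaked at 12.2 CPM in Schwann cell-like and 17.6 CPM in mesenchymal-like cells of the beads library. The highest Plxna3 value, 17.8 CPM, was in mast cell-like cells of that library, where 3 counts equal 53.4 CPM. Mesenchymal-like cells came next with 15.3 CPM of Plxna3, and the ratio of 1.17 had an interval of 0.03 to 6.74. Sema3a, the best-known repellent of sensory axons, did not pass 2.58 CPM in any class.

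**Figure D2:**
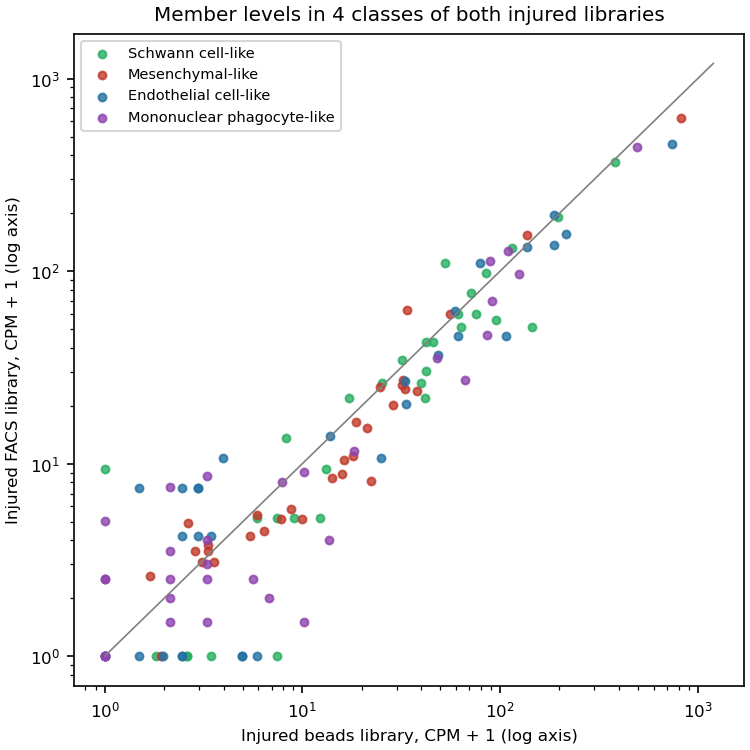
Level of each family gene in 4 cell classes, with the injured beads library on the x axis and the injured FACS library on the y axis (both CPM + 1, log axes); each point is 1 gene in 1 class and the line marks equal levels. Nrp1 in mesenchymal-like cells lies below the line (826 CPM beads, 623 CPM FACS), as does Sema3c in Schwann cell-like cells (144 CPM beads, 50.5 CPM FACS).

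The next comparison set mesenchymal cells of injured nerve against mesenchymal cells of uninjured nerve. Nrp1 was the 1 family gene called higher in the injured beads library, Sema3b and Sema6a were called lower, and 7 of the 31 genes reached 50 CPM in either pool. Of 3964 genes that reached 50 CPM, 8.17% were called higher and 7.14% lower. That is 324 higher and 283 lower, and with TMM scaling it was 252 higher and 349 lower. The median log2 ratio of the 19 family genes with at least 10 CPM was -0.24, beside 0.19 over all 9753 such genes. The FACS mesenchymal-like cells, set against the same uninjured cells, gave Sema7a as higher and Nrp2, Sema3b, Sema3d and Sema6a as lower among 8 genes past the floor. There 10.8% of 3954 genes were called higher and 8.37% lower, and the family's median log2 ratio over 18 genes was -0.93 beside 0.15 over all genes. These comparisons share the uninjured library, and the FACS library also differs from it in strain and isolation. Its cells were also chosen differently, from clusters named here, while the uninjured cells were those the authors predicted to be mesenchymal.

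Nrp1 (chr8:128358604-128503363, plus strand, GRCm38) had 833 CPM (808 to 859.7) in the injured beads library and 623 CPM (599 to 646) in the injured FACS library, against 359 CPM (334 to 385) in the uninjured library. Both injured levels lay above the uninjured one, and their counting intervals do not overlap with it. The log2 ratio was 1.22 (1.10 to 1.33) for the beads library, a 2.32-fold difference. For the FACS library it was 0.79 (0.67 to 0.91), which is 1.73-fold and short of the 2-fold rule. Without cells carrying markers of other classes the log2 ratio for the beads library was 1.24. After each cell was thinned to 500 UMIs, 30.2% of 1135 injured cells of the beads library and 15.7% of 874 uninjured cells had an Nrp1 UMI, with 154 and 6 shallower cells left out. Before thinning the shares were 69.05% and 37.7%, at median depths of 2798 and 2102.5 UMIs. B cell-like cells, not known for Nrp1, gave 2.56% of 312 thinned cells and 5.13% before thinning, at a median of 763.5 UMIs. Plxnb2 was also above its uninjured level in the injured beads and FACS libraries, with 56.7 CPM and 58.7 CPM against 32.3 CPM, but stayed under 2-fold (log2 ratios 0.81 and 0.86).

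Sema7a (chr9:57940112-57962865, plus strand) had 32.2 CPM (27.3 to 37.8) in the injured beads library and 62.2 CPM (54.95 to 70.05) in the injured FACS library, against 3.69 CPM (1.59 to 7.27), from 8 UMIs, in the uninjured library. The injured levels were thus 8.74-fold (4.33 to 20.6) and 16.8-fold (8.396 to 39.3) above the uninjured one, and in the beads library the level missed the 50 CPM floor. Without the cells that carried markers of other classes, the log2 ratio for the beads library was 2.07, in place of 3.13 with them. That cut left out 554 of 1289 injured and 451 of 880 uninjured cells. Depth and layer of the cells left out were not compared, and the cause of the drop was not tested.

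Nrp1 and Sema7a stood higher in injured mesenchymal cells, and their promoters are shown with that of Sema3c, whose level was highest in 1 mesenchymal layer in both conditions as described further on. They are taken from RefSeq in the same way, with the same motifs in capitals. The Nrp1 window (chr8:128358823-128359122, plus strand) held 1 GC box and the Sema7a window (chr9:57939862-57940161, plus strand) held 2. The Sema3c window (chr5:17574566-17574865, plus strand) held 3 GC boxes and 1 SOX match. In these windows, and in those of Sema3e and Sema4f, the AP-1 and TATA letters were not found. GENCODE places the starts of Nrp1 (128358604) and Sema3c (17574281) before their windows. By that annotation the Nrp1 and Sema3c windows lie wholly inside the genes and are not upstream sequence.
Nrp1: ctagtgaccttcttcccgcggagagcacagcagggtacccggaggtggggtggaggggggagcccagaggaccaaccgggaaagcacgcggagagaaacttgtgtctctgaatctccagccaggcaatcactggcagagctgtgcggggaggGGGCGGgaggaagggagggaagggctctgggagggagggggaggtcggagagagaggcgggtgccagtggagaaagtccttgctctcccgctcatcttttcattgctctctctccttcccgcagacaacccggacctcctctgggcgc
Sema7a: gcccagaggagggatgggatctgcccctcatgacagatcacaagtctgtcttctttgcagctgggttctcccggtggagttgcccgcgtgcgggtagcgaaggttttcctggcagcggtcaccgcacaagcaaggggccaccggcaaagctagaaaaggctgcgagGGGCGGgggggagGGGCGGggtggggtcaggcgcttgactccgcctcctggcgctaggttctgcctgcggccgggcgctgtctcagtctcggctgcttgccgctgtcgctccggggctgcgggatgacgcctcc
Sema3c: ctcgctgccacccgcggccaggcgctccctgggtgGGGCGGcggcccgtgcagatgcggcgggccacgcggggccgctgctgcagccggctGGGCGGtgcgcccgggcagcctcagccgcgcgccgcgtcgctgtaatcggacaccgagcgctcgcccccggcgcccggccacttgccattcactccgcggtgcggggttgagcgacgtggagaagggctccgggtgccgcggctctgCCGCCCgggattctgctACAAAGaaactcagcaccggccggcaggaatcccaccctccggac

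Sema3b (chr9:107597674-107609229, minus strand) had 23.6 CPM (19.4 to 28.4) in the injured beads library and 24.03 CPM (19.6 to 29.1) in the injured FACS library, against 147 CPM (131 to 164) in the uninjured library. The injured levels were nearly equal to each other and well below the uninjured one, at log2 ratios of -2.64 (-2.96 to -2.32) and -2.62 (-2.95 to -2.30). Sema3b is highest in Schwann cell-like cells. The 9 Schwann cell markers, all detected in both mesenchymal tables, had a summed level of 87.2 CPM in the injured and 322 CPM in the uninjured table, beside 5573 CPM in Schwann cell-like cells. With cells carrying markers of other classes left out, the log2 ratio of Sema3b was -2.18. With equal weight for the 3 mesenchymal layers described further on, and all other mesenchymal cells left out, it was -1.18.

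Sema6a had 18.5 CPM (14.9 to 22.8) in the injured beads library and 14.3 CPM (10.98 to 18.4) in the injured FACS library, against 53.5 CPM (44.2 to 64.1) in the uninjured library. Both injured levels were below the uninjured one, with log2 ratios of -1.53 (-1.94 to -1.12) and -1.91 (-2.38 to -1.45). It is highest in endothelial cell-like cells, whose 8 markers, all detected in both tables, had a summed level of 161 CPM in the injured and 204 CPM in the uninjured table, beside 7923 CPM in endothelial cell-like cells. Without cells carrying markers of other classes the log2 ratio of Sema6a was -1.84. The call was lost when cells were thinned to 1000 UMIs (log2 ratio -1.66, under the floor) and with equal weight for the 3 layers (-0.64).

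Nrp2 and Sema3d were below their uninjured level in both injured libraries but passed the 2-fold rule in the FACS library alone. Nrp2 had 38.8 CPM and 22.9 CPM in the beads and FACS libraries, against 67.3 CPM in the uninjured library, with log2 ratios of -0.80 and -1.56. With equal weight for the 3 mesenchymal layers described further on the beads log2 ratio of Nrp2 was -0.18. Sema3d had 32.4 CPM and 26.1 CPM, against 53.02 CPM, with log2 ratios of -0.71 and -1.03. Sema3c, with 136 CPM and 153 CPM against 249 CPM, stayed under 2-fold in both (log2 ratios -0.87 and -0.71). Plxnc1 was under the floor with 13.1 CPM and 7.39 CPM against 30.9 CPM. The 10 macrophage or monocyte markers, of which all were detected in injured and 6 in uninjured cells (C1qa, C1qc, Adgre1 and Fcgr1 were at 0), had a summed level of 298 CPM in the injured beads table, 1129 CPM in the FACS mesenchymal-like cells and 23.5 CPM in the uninjured table. In mononuclear phagocyte-like cells of the beads library that sum was 39492 CPM. The part of such carried-over RNA in Nrp1, Nrp2, Plxnb2 and Plxnc1, which those cells hold, was not tested beyond the cells left out.

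**Figure D3:**
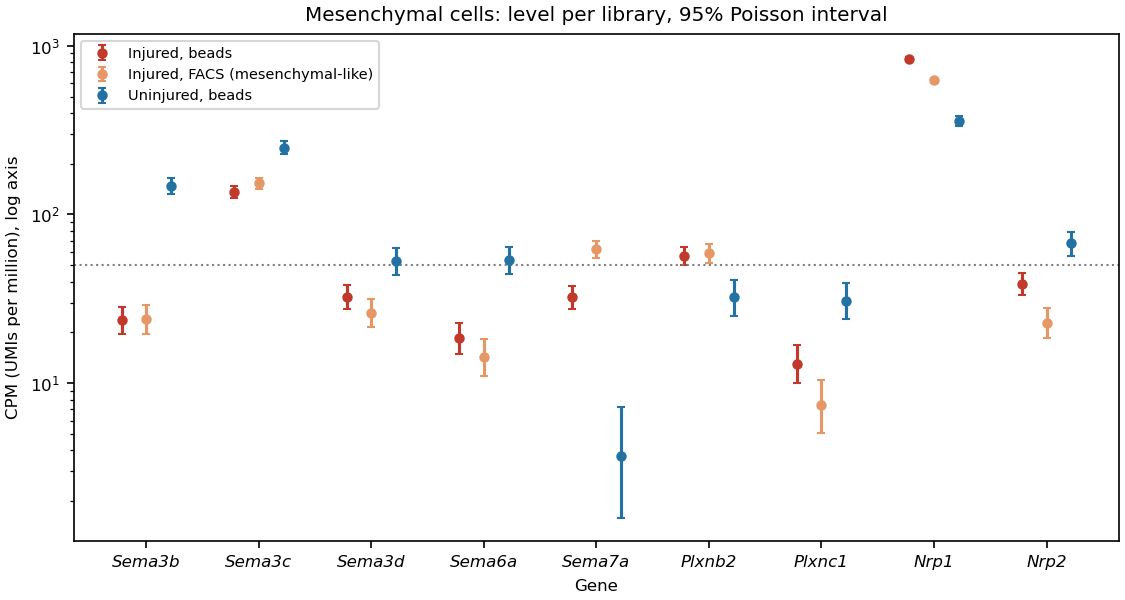
Level (CPM, log axis) of 9 family genes in mesenchymal cells of the injured beads, injured FACS and uninjured beads libraries; points are pooled levels, bars are 95% Poisson intervals and the dotted line is the 50 CPM floor. Both injured points lie above the uninjured one for Nrp1, Sema7a and Plxnb2 and below it for the other 6 genes.

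Mesenchymal cells of nerve comprise endoneurial cells between the axons, perineurial cells around each fascicle and epineurial cells outside it. Injured and uninjured cells were clustered together without the family and named from markers of these layers, with a further set of differentiating-like cells named from markers such as Dlk1, Mest, Postn and Tnc. Endoneurial-like cells were 251 of 1289 injured and 428 of 880 uninjured cells (19.5% and 48.6%), and epineurial-like cells were 196 and 382 (15.2% and 43.4%). Perineurial-like cells were 73 and 66 (5.66% and 7.5%). Differentiating-like cells were 668 injured and 3 uninjured cells, so they give no comparison. Levels within a layer were compared next. Of the injured endoneurial-like cells, 250 formed a cluster of their own led by Wif1 and Ccl9, and 1 fell among the uninjured ones, led by Angptl7 and Enpp2.

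Nrp1 was above its uninjured level in every layer. It reached 507 CPM in injured, against 166 CPM in uninjured, endoneurial-like cells (3.05-fold, 2.597 to 3.59), and 1049 CPM and 434 CPM in perineurial-like cells (2.42-fold). In epineurial-like cells it had 1146 CPM and 581 CPM (1.97-fold, 1.73 to 2.24), just under the rule. Differentiating-like cells of the injured library had 997 CPM (958 to 1038) and held 60.8% of the 3955 Nrp1 UMIs of that table. With the 3 layers given equal weight, the log2 ratio of Nrp1 was 1.19, close to the pooled 1.22. Equal weight, here and for other genes, leaves out the differentiating-like and unnamed cells.

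Among endoneurial-like cells 2 genes were called higher and 4 lower among 6 past the floor, beside 10.8% and 9.4% of 3736 genes. Sema7a had 53.1 CPM (42.5 to 65.5) in injured, against 3.59 CPM (0.979 to 9.198) in uninjured, endoneurial-like cells, from 87 and 4 UMIs. With layers assigned to each cell by marker score, Sema7a was no longer called. The injured endoneurial-like cells held 56.9% of the Sema7a UMIs of the injured table. Sema3b stood at 22.6 CPM in injured, against 197 CPM in uninjured, endoneurial-like cells, a log2 ratio of -3.12 (-3.67 to -2.62). Sema6a had 25.02 CPM and 92.5 CPM there, Nrp2 had 30.5 CPM and 95.2 CPM, and Plxnc1 had 10.4 CPM and 57.5 CPM. In the other layers Sema6a was not below its uninjured level, with 15.01 CPM and 8.81 CPM in injured and uninjured epineurial-like cells and 47.9 CPM and 36.1 CPM in perineurial-like cells. Nrp2 had 20.01 CPM and 8.81 CPM in epineurial-like cells. These are from 5 to 10 UMIs each, and none passed the rule. Sema3b had 71.8 CPM and 65.1 CPM in injured and uninjured perineurial-like cells, with a log2 ratio of 0.14 (-1.14 to 1.52). The Schwann cell markers stood at a sum of 63.5 CPM in injured and 362 CPM in uninjured endoneurial-like cells, and their part in the Sema3b difference was not tested. The endoneurial-like cells of the FACS library, a cluster of 93 cells led by Wif1, had 408 CPM of Nrp1, 87.3 CPM of Sema7a, 31.7 CPM of Sema6a and 20.4 CPM of Nrp2.

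Epineurial-like cells gave 0 calls in either direction among 6 family genes past the floor, where 4.21% of 3851 genes were called higher and 2.13% lower. Their level of Sema3c was high in both conditions, with 580.3 CPM (508 to 659.96) in injured and 524 CPM (478 to 573) in uninjured cells and a log2 ratio of 0.15 (-0.09 to 0.38). The 210 epineurial-like cells of the FACS library had 496 CPM (453 to 542). Epineurial-like cells held 35.9% of the 646 Sema3c UMIs of the injured table and 88.2% of the 540 of the uninjured table. Differentiating-like cells held 54.3% of the injured ones. With equal weight for the 3 layers the log2 ratio of Sema3c was 0.15, in place of -0.87 for the pool, so its direction turned. Sema3b had 65.03 CPM and 100.2 CPM in injured and uninjured epineurial-like cells, with a log2 ratio of -0.62 (-1.31 to 0.02).

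Perineurial-like cells had the highest Sema3d and Nrp2 of the layers. Sema3d had 287 CPM (219 to 369.9) in injured, against 427 CPM (325 to 550.2) in uninjured, perineurial-like cells, and Nrp2 had 220.3 CPM (161 to 294) and 202 CPM (134 to 293). Neither passed the rule. Calls were Nrp1 and Plxnc1 higher and Sema5a lower among 10 genes past the floor, beside 5.66% and 7.85% of 4826 genes. With layers assigned by marker score the calls were Sema3c higher and Sema3d and Sema5a lower, and those of Nrp1 and Plxnc1 were lost. The share over all genes with layers assigned that way is not given here. Plxnc1 rested on 13 UMIs in injured cells (62.3 CPM, 33.2 to 106) and 0 in uninjured cells, where 0 counts allow up to 21.7 CPM. Sema5a rested on 2 and 9 UMIs (9.58 CPM and 65.1 CPM). Plxnc1 also shares 115 exonic bases with Gm48718 on its own strand. Its direction was opposite in endoneurial-like cells, and with equal weight for the layers its log2 ratio was 0.26, in place of -1.24 for the pool.

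**Figure D4:**
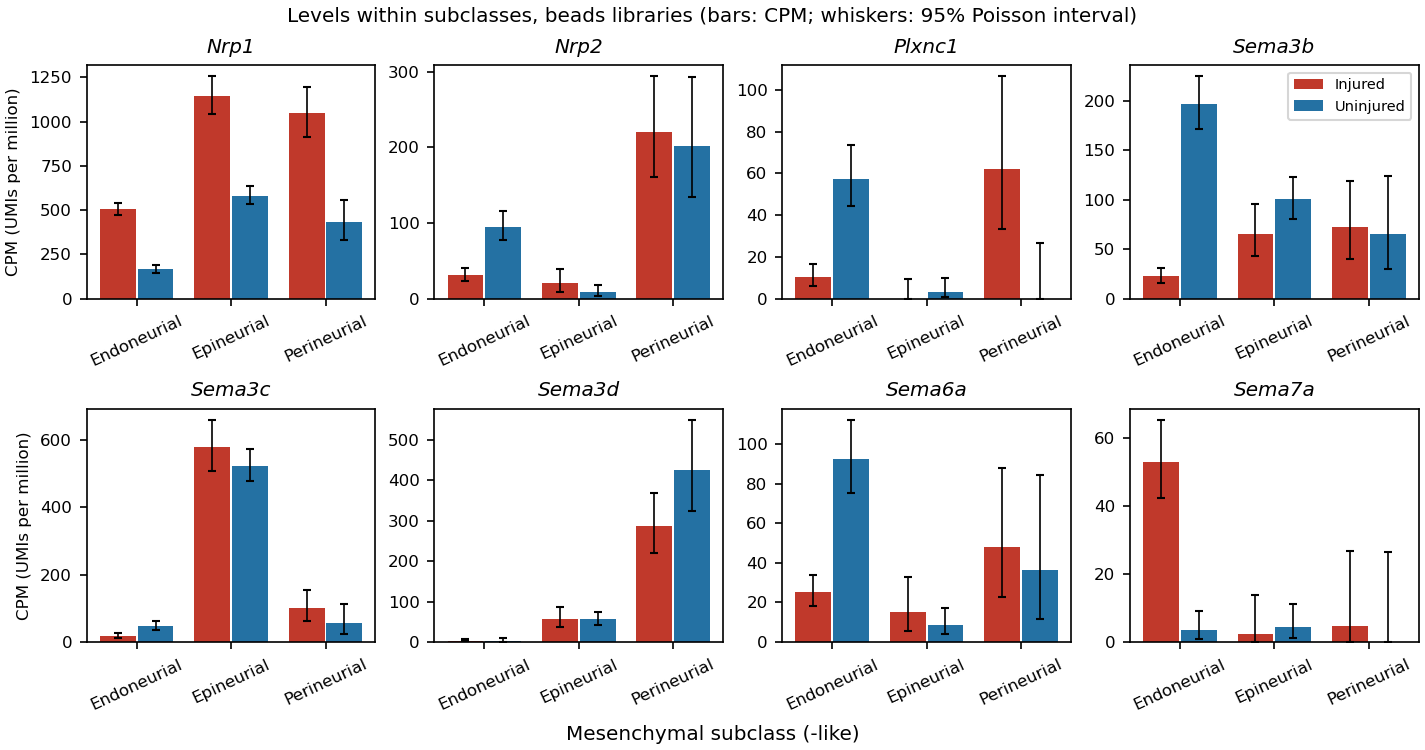
Level (CPM, linear axis from 0) of 8 family genes in endoneurial-like, epineurial-like and perineurial-like cells of the injured (red, left) and uninjured (blue, right) beads libraries; whiskers are 95% Poisson intervals. Nrp1 is higher in injured cells of each layer and Sema7a in injured endoneurial-like cells, while Sema3c is highest in epineurial-like and Sema3d in perineurial-like cells of both libraries.

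Partners of the family were followed in the same tables. Of 16 co-receptors and other binding partners, 5 reached 50 CPM, 1 was called higher in the injured beads library and 0 lower. Of all genes that reached 50 CPM, 8.17% and 7.14% were called. Their median log2 ratio was 0.49 over 9 genes, beside 0.19 over all genes. The gene called was Chl1, a neuronal adhesion molecule that binds Nrp1, with 162 CPM in the injured and 6.45 CPM in the uninjured library and a log2 ratio of 4.65 (3.89 to 5.53). In the FACS library Chl1 had 51.1 CPM and was also called higher, 1 of 4 such partners past the floor. Endoneurial-like cells had 342 CPM of Chl1 in the injured and 5.39 CPM in the uninjured library. Of 25 intracellular effectors, 10 reached 50 CPM, 2 were called higher and 0 lower, and their median log2 ratio over 20 genes was 0.14, also beside 0.19 over all genes. Called were Dpysl3, a collapsin response mediator, with 274 CPM and 134 CPM in the injured and uninjured libraries, and Mical2, an actin-oxidising enzyme, with 67.2 CPM and 17.98 CPM. With equal weight for the 3 layers 1 of the 3 partner genes was called, and with TMM or DESeq2 scaling 2 were, the call of Dpysl3 being lost. In the FACS comparison 11 effectors reached 50 CPM. Of these Mical2, Gipc1, which binds neuropilin tails, and Cfl1, an actin-severing protein, were called higher, beside 10.8% of the 3954 genes past the floor. Dpysl2, another collapsin response mediator, was called lower there, with 49.7 CPM against 104 CPM in the uninjured library, beside 8.37% of those 3954 genes.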

How the data were processed

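The authors deposited 4 tables of raw UMI counts per gene and cell: all barcodes of both injured libraries, and mesenchymal cells of the injured and uninjured beads libraries. The submitters' processing notes list the build mm10. No source used here names the aligner, the counter, its use of strand or how mesenchymal cells were predicted. All 1289 barcodes of the injured mesenchymal table also occur in the all-cell beads table with equal counts. Older symbols (2 per file) were replaced. Sema4f has no row in the uninjured table and was read as 0. The FACS comparison was scaled over the genes that the FACS table lists.

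Barcodes with at least 200 genes were clustered (scanpy 1.11.5, 2000 variable genes without the family, 30 components, 15 neighbours, Leiden resolution 0.8, Python 3.11.15). Barcodes under that limit numbered 189 in the beads and 86 in the FACS table. A cluster took the name of its best marker list at a mean log2 enrichment of at least 1 and a margin of 1. At least 3 of those markers had to be found in at least 5% of its cells. No other list could hold more of the cluster's top 10 genes. A cluster with no own marker among these stayed unnamed if its median UMIs were under the overall median divided by 3. No doublet caller was run, so doublets remain. Counts were summed per pool and divided by the pool total to give CPM. CPM values carry exact Poisson intervals, shares exact binomial intervals and ratios exact conditional binomial intervals. Cells were not treated as replicates. For genes at 0 the limit is 3 counts of the pool. Genes named with values were those reaching 50 CPM in a mesenchymal pool or a named class. Partner genes were named where they passed the size rule. The members, lists and rules were chosen with earlier results of these data known. The calling step was run on simulated pools with Poisson counting error only, the error that the intervals assume. That check holds no spread between cells or libraries, so it cannot show how the calls would fare with replicates. Alternatives were TMM (edgeR 4.0.16) and DESeq2 1.42.0 scaling of the pooled counts, other floors and folds, other clusterings, thinned cells, equal weight of layers, and cells left out. Promoters matched 26 of the 31 genes. Positions are from GENCODE on GRCm38.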

Additional observations from a re-analysis of the deposited data

Results flagged for a closer look

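Plxnc1, the plexin that binds Sema7a, moved in opposite directions in the mesenchymal layers. Perineurial-like cells had 62.3 CPM in the injured and 0 CPM in the uninjured beads library (13 and 0 UMIs). Endoneurial-like cells had 10.4 CPM in the injured and 57.5 CPM in the uninjured beads library (17 and 64 UMIs). With 1 library per group the difference between the layers was not tested. The perineurial-like call was lost with layers assigned by marker score. The 107 perineurial-like cells named in the all-cell table of the injured beads library had 66.6 CPM (40.7 to 103). That table is of the same library and holds every barcode of the injured mesenchymal table, so this is no second measurement.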

How the results depend on the processing

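No paired analysis was possible because each group is 1 library. In the beads comparison, 1 family gene was called higher and 2 lower. A floor of 10 CPM gave 2 higher (Nrp1 and Sema7a) and 4 lower, no floor gave 4 and 5, and a 1.5-fold rule gave 2 and 5. Thinned cells and equal weight of 3 layers each gave 1 lower (Sema3b), and FACS mesenchymal-like cells gave 4 lower. Calls over all genes, 324 higher and 283 lower, became 991 and 675 with a floor of 10 CPM, 1485 and 1094 with no floor, 845 and 530 at 1.5-fold, and 177 and 172 with equal weight. The numbers of genes tested with another floor or with equal weight are not given here. Family calls and calls over all genes in those settings are thus not compared as shares. Partner genes, 3 higher and 0 lower, gave 2 lower with a floor of 10 CPM, 5 higher and 4 lower with no floor, 7 and 3 at 1.5-fold, and 1 higher with equal weight. They gave 1 lower without cells carrying markers of other classes (554 injured and 451 uninjured cells left out) and 1 lower with FACS cells. Members highest in 1 class by 2-fold with every interval excluding 1, 7 in the beads library, numbered 1 with at least 500 genes per barcode and 1 in the FACS library. For the setting of 500 genes the share over all genes is not given here. Layers assigned by marker score gave 1 gene higher in endoneurial-like cells (Nrp1), and 1 higher (Sema3c) and 2 lower (Sema3d and Sema5a) in perineurial-like cells. Resolution 1.6 gave 1 gene higher in epineurial-like cells (Plxna1). For marker score, resolution 1.6 and thinned cells the share over all genes is not given here. The counts of family genes in those settings are thus not read as traits of the family. The causes of these changes in calls were not tested, apart from the wider rules, which admit more genes by construction. TMM and DESeq2 scaling shifted all log2 ratios by -0.13 and -0.12 and kept the calls of the family genes, but each gave 2 partner genes higher in place of 3, without Dpysl3. Over all genes TMM gave 252 higher and 349 lower, and DESeq2 gave 257 and 346. Leaving out cells with a UMI of a division gene, chosen after seeing the data, changed no call of a family gene. Calls for genes near 50 CPM rest on few UMIs, and classes such as mast cell-like cells, where 3 counts equal 53.4 CPM, could not show low levels.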

Other observations

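Across the mononuclear phagocyte-like clusters of the FACS library, Nrp1 stood at 595 CPM in the cluster led by Ccl8, Pf4 and Mrc1, 473 CPM in the cluster led by Gpnmb and Fabp5, 353 CPM in the cluster led by Mmp12 and Mmp9, and 308 CPM in the cluster led by Ccr2 and H2-Eb1. Sema4d had another order, with 162 CPM in the Mmp12 cluster, 86.5 CPM in the Ccr2 cluster and 36.3 CPM in the Ccl8 cluster. In the same library Sema7a had 97.3 CPM (81.1 to 116) in the mesenchymal-like cluster led by Mmp13, Cilp and Mest, beside 24.9 CPM (18.005 to 33.5) in the cluster of the beads library led by Cilp, Mest and Dlk1. Strain, isolation and sort differ together between these libraries and cannot be told apart.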
